A study of Mus musculus with 24 samples.

Results

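The genes described here are 32 enzymes and regulators of cholesterol and fatty acid synthesis, targets or parts of the SREBP system. They were picked by symbol from the 52976 gene symbols counted in the series. All 32 were in the count files. The filter on low counts kept 32 in the wounds and 31 in the cells, where Acacb stood at 0.176 to 0.418 CPM (read counts scaled to library size) and was not tested. By role they were 7 enzymes of the mevalonate part, 11 enzymes from squalene to cholesterol, 6 regulators and carriers, and 8 genes of fatty acid synthesis. The mevalonate and squalene-to-cholesterol enzymes together are the 18 sterol enzymes.

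Animal cells build cholesterol from acetyl-CoA, first to mevalonate and the isoprenoid units, then to squalene, which is closed to lanosterol and trimmed to cholesterol. The transcription factors SREBP-1 and SREBP-2 switch these genes on when membrane sterol falls: the escort protein SCAP carries them out of the endoplasmic reticulum, and the INSIG proteins hold them back. In skin, epidermis needs cholesterol and fatty acids for its barrier, sebaceous glands secrete lipids they make themselves, and fat cells store newly made fatty acids.

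Messenger RNA was sequenced from 18 wound libraries of diabetic mice and 6 libraries of RAW264.7, an established mouse macrophage line. Wounds were either untreated diabetic controls or had received the hydrogel Fmoc-KYF-AgNCs-3S1C-Hyd2, which the series title describes as a peptide gel with silver nanoclusters and a hydrogenase for hydrogen release under light. Each was sampled at days 1, 7 and 14, with 3 libraries per group. RAW264.7 cells gave 3 libraries without and 3 with hydrogel. The titles call the treated wounds TEOA, and the cell groups H2 and Without_H2. The 3 treated cell libraries are labelled with gels ending in Hyd3, Hyd4 and Hyd5, and the wounds with Hyd2. The label of the untreated cells names LPS, a bacterial activator of macrophages, and that of the treated cells names the gel alone, although the series design describes LPS-induced cells in both arms. Whether LPS differed between the cell groups therefore cannot be told apart from the gel. Strain, age and sex of the mice, the diabetes model and any pooling of animals are not given in the sources used here. The labels do not tell whether replicates are different mice or dishes, so a p-value here reflects just how far these libraries differ, which can be technical.

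Total counts ran from 12.4 to 27.1 M read pairs per wound library and from 17.9 to 24.0 M per cell library. The spread between replicates was uneven. Over the 32 genes the median coefficient of variation was 43.6% in control and 42.6% in hydrogel wounds at day 1, 6.69% and 8.2% at day 7, and 65.1% and 9.67% at day 14. It was 2.36% in untreated and 10.2% in treated cells. Pairs of control wounds of day 7 differed with a median chi-square of 0.643 to 0.777, and pairs of untreated cells with 0.505 to 0.607, where counting noise alone gives 0.455. Control day 14 replicate 1 was the lowest library of its group for 31 of 32 genes, and control day 1 replicate 1 the highest for 19. Hydrogel day 14 replicate 2 lay between the other replicates for 32 of 32 genes and for 78.9% of 8424 genes above 20 CPM. A weighted mean of 44.4% replicate 1 and 55.6% replicate 3 matched it with a median chi-square of 0.63 per gene. Treated cells, replicate 2, lay between the others for 24 of 32 genes and 75.7% of 6462 genes, with a median chi-square of 0.849 from a mean of 46.3% replicate 1 and 53.7% replicate 3. Counts of genes that passed in the hydrogel comparisons at day 14 and in the cells are given with and without these 2 libraries.

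SREBPs act through sterol regulatory elements and partner sites such as CCAAT boxes, so the promoters of 5 sterol enzymes that rose at day 7 and of Fasn, which fell, are shown. RefSeq windows on GRCm38.p6, from 250 bases before to 50 after a start, were matched by symbol for 26 of the 32 genes (34 windows). The 200 bases before the start are printed 5′ to 3′. Capitals mark a form of the sterol regulatory element, TCACNCCAC, and the letters CCAAT, on either strand.
Hmgcs1: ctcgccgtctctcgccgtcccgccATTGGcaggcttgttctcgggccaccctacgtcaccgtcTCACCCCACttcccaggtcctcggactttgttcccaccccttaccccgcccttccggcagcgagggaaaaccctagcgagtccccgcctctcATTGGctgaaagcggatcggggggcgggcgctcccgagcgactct
Mvd: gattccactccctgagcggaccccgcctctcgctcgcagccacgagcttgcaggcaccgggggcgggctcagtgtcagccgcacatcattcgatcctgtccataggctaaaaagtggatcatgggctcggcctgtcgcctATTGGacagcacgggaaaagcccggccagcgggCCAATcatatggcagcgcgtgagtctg
Cyp51: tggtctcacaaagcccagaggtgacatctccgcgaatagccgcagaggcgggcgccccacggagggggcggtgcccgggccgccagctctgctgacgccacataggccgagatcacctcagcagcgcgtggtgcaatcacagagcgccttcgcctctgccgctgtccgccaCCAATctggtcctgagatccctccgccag
Msmo1: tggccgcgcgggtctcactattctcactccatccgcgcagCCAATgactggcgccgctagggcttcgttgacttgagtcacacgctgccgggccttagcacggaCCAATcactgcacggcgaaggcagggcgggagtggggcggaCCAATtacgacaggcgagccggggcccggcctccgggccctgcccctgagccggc
Hsd17b7: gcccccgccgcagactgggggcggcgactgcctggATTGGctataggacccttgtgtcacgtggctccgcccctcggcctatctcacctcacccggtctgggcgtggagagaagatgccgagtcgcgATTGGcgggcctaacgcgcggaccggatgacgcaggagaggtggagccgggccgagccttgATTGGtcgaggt
Fasn: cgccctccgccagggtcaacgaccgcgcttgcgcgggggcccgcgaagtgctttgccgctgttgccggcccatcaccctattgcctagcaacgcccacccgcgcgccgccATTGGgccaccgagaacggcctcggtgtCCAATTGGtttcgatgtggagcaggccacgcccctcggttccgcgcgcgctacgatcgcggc

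These stretches lie at chr13:119690151-119690350 (plus strand) for Hmgcs1, chr8:122443423-122443622 (minus) for Mvd, chr5:4104698-4104897 (minus) for Cyp51, chr8:64733579-64733778 (minus) for Msmo1, chr1:169969206-169969405 (minus) for Hsd17b7 and chr11:120824548-120824747 (minus) for Fasn. The element TCACNCCAC, searched on both strands, was in 1 of the 34 windows, that of Hmgcs1, where it begins 137 bases before the start, and in 1.24% of all 32851 windows. CCAAT was in 23 of the 34 windows (67.6%) against 37.4% of all windows, and in 77.8% of the windows of sterol enzymes. The GC box GGGCGG was in 73.5% against 35.7%. The palindromic E-box TCACGTGA was in 0 of the 34 windows and in 0.974% of all. In Fasn 2 CCAAT matches on opposite strands overlap. A match describes letters in the window, and its absence says only that those letters are not in this window. Other forms of the sterol regulatory element were not searched.

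At day 7 most sterol enzymes were higher in hydrogel wounds, while acetyl-CoA carboxylase 1 and fatty acid synthase were lower. Of the 32 genes 16 rose and 2 fell (edgeR quasi-likelihood test, Benjamini-Hochberg adjusted p below 0.05 over all genes), where 9.86% of 17592 tested genes rose and 11.7% fell. The median log2 fold change was 1.12 over the 32 genes and 0.01 over all genes tested. By role, 13 of 18 sterol enzymes rose and 0 fell (median 2.26), 3 of 6 regulators and carriers rose, and 0 of 8 fatty acid genes rose while 2 fell (median -0.16). Libraries of the groups did not overlap for 25 genes higher and 7 lower, where 35.3% and 34.9% of all genes stood so. Summed over the 18 sterol enzymes, control wounds held 467.6, 454.1 and 470.5 CPM and hydrogel wounds 2487, 2503 and 2577 CPM, 5.43-fold more by the means. The 8 fatty acid genes summed to 6760 to 6960 CPM in control and 1671 to 2068 CPM in hydrogel wounds, 3.67-fold less, and Fasn alone made up 73.2% to 73.9% of that sum in controls and 34.0% to 35.4% with hydrogel. In wound tissue, fewer cells of a type and less RNA per cell cannot be told apart.

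**Figure D1:**
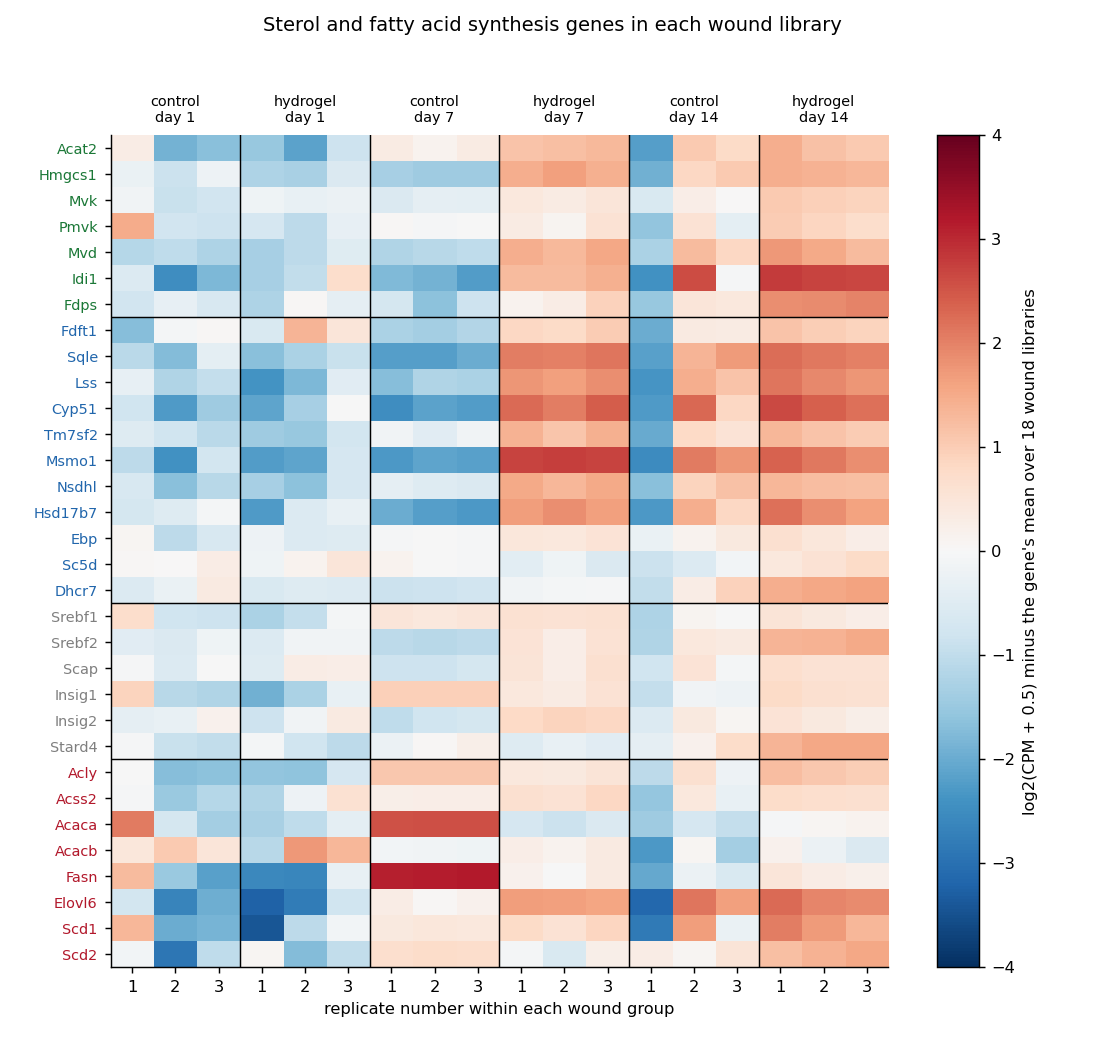
Level of the 32 genes in each of the 18 wound libraries, as log2(CPM + 0.5) minus the gene's mean over those libraries (colour), with libraries in columns by group and replicate and genes in rows by role (green mevalonate part, blue squalene to sterol, grey regulators and carriers, red fatty acid synthesis). Sterol enzymes are high in the hydrogel columns of days 7 and 14 and in 2 of 3 controls at day 14, Fasn and Acaca are high in the 3 controls of day 7, and control day 14 replicate 1 is low for 31 of 32 genes.

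The mevalonate part runs from acetyl-CoA to the isoprenoid units. Hmgcs1, HMG-CoA synthase (chromosome 13, 119690379 to 119708260, plus strand), stood at 66.2, 62.7 and 62.0 CPM in control and at 463.9, 529.8 and 452.3 CPM in hydrogel wounds at day 7. Every hydrogel library was above every control, and the log2 fold change was 2.92 ± 0.51 (SE, edgeR adjusted p = 0.002576). Mvd, which decarboxylates mevalonate diphosphate, stood at 19.1, 20.3 and 21.8 against 122.4, 111.4 and 131.5 CPM, a log2 fold change of 2.58 ± 0.44 (edgeR adjusted p = 0.002382). Idi1, the isomerase of isopentenyl diphosphate, was low in control at 3.12, 2.85 and 2.17 CPM and stood at 29.6, 29.4 and 32.7 CPM with hydrogel (3.49 ± 0.96, edgeR adjusted p = 0.01962). The groups of both genes were well apart. Mvk, mevalonate kinase, moved less: its control libraries were at 19.8, 23.5 and 22.9 CPM and its hydrogel libraries at 40.9, 38.3 and 42.2 CPM (0.87 ± 0.22, edgeR adjusted p = 0.01384). Fdps, which makes farnesyl diphosphate, had hardly any counts, at 0.595, 0.0677 and 0.489 CPM in control and 1.44, 1.68 and 2.87 CPM with hydrogel (2.37 ± 0.79, edgeR adjusted p = 0.043). Whether near-identical copies of Fdps bear on its counts was not tested. Acat2, the thiolase that opens the pathway, and Pmvk, phosphomevalonate kinase, did not pass, with log2 fold changes of 0.95 ± 0.64 and 0.35 ± 0.55.

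The 4 largest estimates among the 32 genes at day 7 were those of Msmo1, Cyp51, Sqle and Hsd17b7. Msmo1, the C4-methyl sterol oxidase (chromosome 8, 64718139 to 64733792, minus strand), stood at 19.6, 22.6 and 21.7 CPM in control and at 652.5, 678.0 and 650.0 CPM in hydrogel wounds. That is a log2 fold change of 4.95 ± 0.85 (edgeR adjusted p = 0.002396), with no overlap. Cyp51, the lanosterol 14-demethylase, went from 4.39, 5.69 and 5.24 CPM to 128.9, 110.4 and 143.6 CPM (4.64 ± 0.85, edgeR adjusted p = 0.003102). Sqle, squalene epoxidase, a rate-limiting enzyme of this stretch, was at 8.40, 8.47 and 9.78 CPM in control and at 167.2, 163.5 and 180.6 CPM with hydrogel (4.26 ± 0.67, edgeR adjusted p = 0.001706). For these enzymes the 3 control libraries lay within a narrow band far below the hydrogel libraries. Hsd17b7, the 3-keto reductase of sterol synthesis, stood at 4.24, 3.59 and 3.35 CPM against 59.3, 67.0 and 58.1 CPM (4.04 ± 0.71, edgeR adjusted p = 0.002616). Lss, which closes the ring to lanosterol, stood at 13.5, 19.0 and 18.2 CPM against 154.6, 140.9 and 162.4 CPM (3.17 ± 0.69, edgeR adjusted p = 0.006487).

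Further enzymes of this stretch moved by smaller amounts. Fdft1, squalene synthase, stood at 41.0, 37.9 and 43.5 CPM in control and at 178.1, 168.0 and 200.6 CPM in hydrogel wounds (2.16 ± 0.56, edgeR adjusted p = 0.01532). Nsdhl, the decarboxylase that works beside Msmo1 and Hsd17b7, stood at 34.4, 31.0 and 30.0 against 129.8, 112.7 and 129.8 CPM (1.96 ± 0.49, edgeR adjusted p = 0.01234). Tm7sf2, a sterol C14 reductase, stood at 12.6, 10.1 and 12.6 against 37.5, 30.8 and 38.3 CPM (1.60 ± 0.49, edgeR adjusted p = 0.03027). In all of them each hydrogel library exceeded each control. The last steps did not pass: Ebp, the sterol isomerase, had a log2 fold change of 0.52 ± 0.24, Dhcr7, the 7-dehydrocholesterol reductase, 0.75 ± 0.34, and Sc5d, the lathosterol oxidase, -0.42 ± 0.22. Sc5d was the single sterol enzyme whose hydrogel libraries, at 15, 18.1 and 13.3 CPM, all lay below the controls, at 22.5, 20.1 and 19.5 CPM.

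Among the regulators, Srebf2, which encodes SREBP-2 (chromosome 15, 82147181 to 82205379, plus strand), stood at 36.5, 34.8 and 36.5 CPM in control and at 109.4, 90.2 and 113.8 CPM in hydrogel wounds, a log2 fold change of 1.54 ± 0.31 (edgeR adjusted p = 0.004252). Srebf1, which encodes SREBP-1 (chromosome 11, 60199089 to 60222581, minus strand), was at 160.0, 152.8 and 159.8 against 172.8, 171.0 and 171.8 CPM, a log2 fold change of 0.13 ± 0.40 (edgeR adjusted p = 0.8456). Its libraries did not overlap. The estimate was well within its error, which the fit draws from all wound groups. At day 7 Srebf1 itself varied little, with a coefficient of variation of 2.6% in control and 0.53% in hydrogel wounds. Scap stood at 27.9, 28.1 and 30.2 against 71.1, 60.4 and 77.8 CPM (1.28 ± 0.29, edgeR adjusted p = 0.00777). Insig2 stood at 32.2, 37.2 and 39.6 against 114.3, 120.9 and 115.3 CPM (1.68 ± 0.28, edgeR adjusted p = 0.002382). Insig1, itself a target of SREBPs, did not pass and stood at 106.1, 105.0 and 104.7 against 72.8, 67.4 and 80.9 CPM (-0.51 ± 0.48, edgeR adjusted p = 0.4544). Stard4, a cholesterol carrier, did not pass (-0.46 ± 0.32).

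Fatty acid synthesis went the other way at Acaca and Fasn. Fasn, fatty acid synthase (chromosome 11, 120805846 to 120824547, minus strand), stood at 4948, 5032 and 5143 CPM in control and at 646.6, 567.4 and 731.0 CPM in hydrogel wounds (-2.96 ± 0.81, edgeR adjusted p = 0.0193). Acaca, acetyl-CoA carboxylase 1 (chromosome 11, 84129672 to 84401651, plus strand), stood at 613.0, 619.1 and 617.9 against 65.1, 57.3 and 69.5 CPM (-3.27 ± 0.65, edgeR adjusted p = 0.004172). All hydrogel libraries were far below all controls for both. Per kilobase of counted exon, Fasn was the highest of the genes in control wounds of day 7 at 468.7 CPM per kb, ahead of Acly at 68.4, while with hydrogel Msmo1 (109.3), Hmgcs1 (104.9), Mvd (65.5) and Acat2 (63.8) were above Fasn at 60.3. That order leaves out Scd1, Cyp51, Elovl6 and Acss2, whose counted exons were 1354, 1955, 2907 and 7625 bases long in the files against 4892, 4415, 6431 and 10163 in the reference annotation. The other 6 genes did not pass: Acly, ATP citrate lyase, -0.63 ± 0.44; Acss2, acetyl-CoA synthetase, 0.43 ± 0.47; Acacb, acetyl-CoA carboxylase 2, 0.38 ± 0.57. For the elongase Elovl6 the estimate was 1.47 ± 0.86, for the desaturase Scd1 0.31 ± 0.95 and for Scd2 -0.81 ± 0.51, and reads may be shared among the near relatives of the Scd family.

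**Figure D2:**
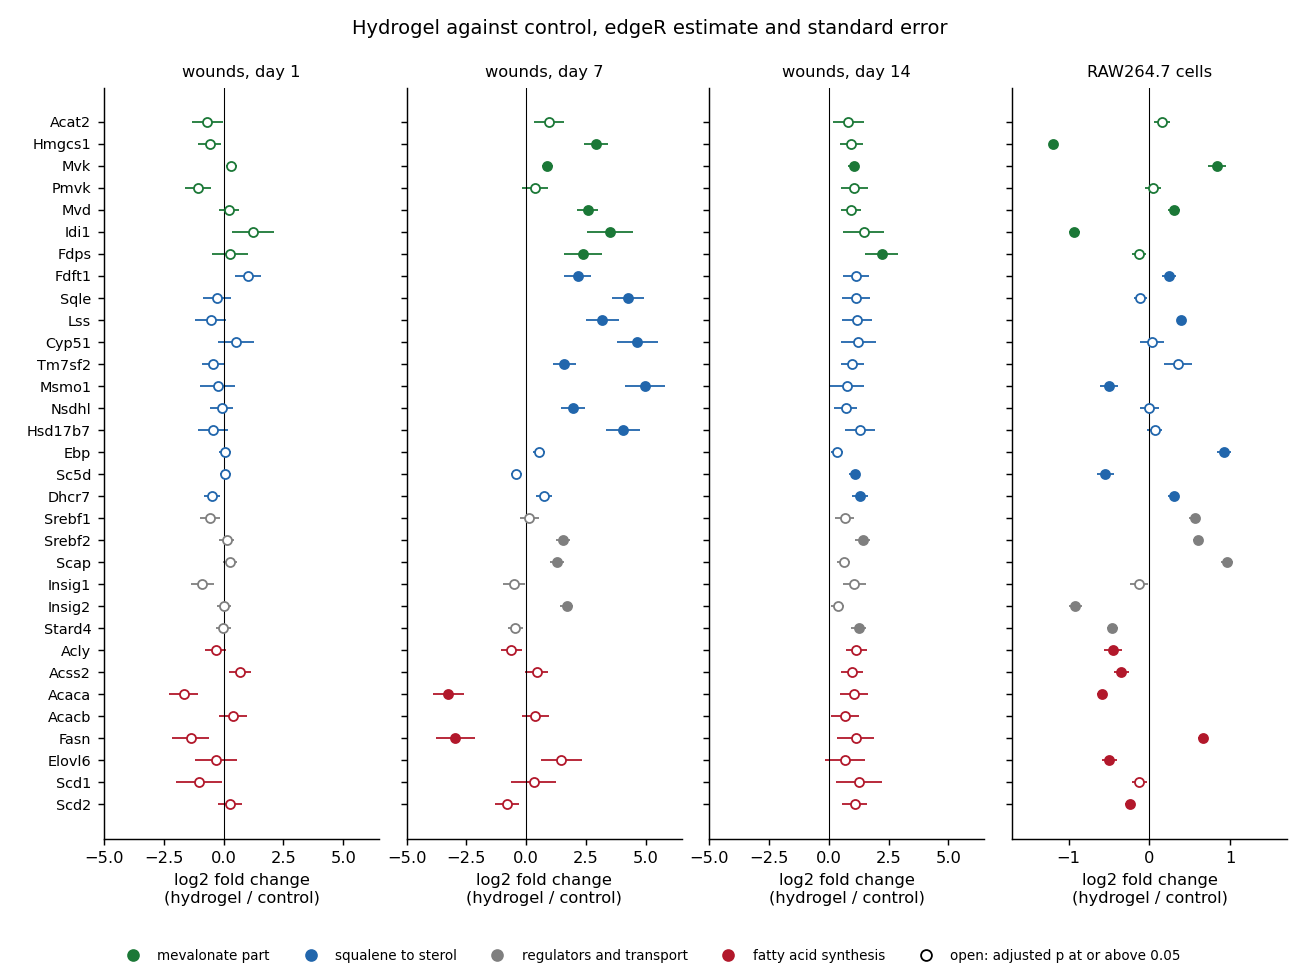
Log2 fold change of hydrogel against control with its standard error (x axis, edgeR) for each of the 32 genes (y axis, coloured by role) in wounds at days 1, 7 and 14 and in RAW264.7 cells, with filled points at an adjusted p below 0.05 and a narrower axis for the cells. At day 7, 13 of 18 sterol enzymes are filled to the right and Acaca and Fasn to the left, at day 14 all 32 points lie to the right with 6 filled, at day 1 none is filled, and in the cells 10 are filled to the right and 11 to the left.

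Other genes of lipid metabolism, from lists kept beside the 32, went in both directions at day 7. Of 14 other genes of sterol and isoprenoid handling 3 rose and 2 fell (Ggps1 at -0.69 and Npc2 at -2.17), with Pdss1, which makes the tail of coenzyme Q, at 3.58, Soat1, which esterifies cholesterol, at 3.57, and Tmem97, a sterol-regulated membrane protein, at 2.46 on the log2 scale. Of 16 other lipogenic genes 2 rose and 7 fell. Mid1ip1, an activator of acetyl-CoA carboxylase, was at 2.53, while Thrsp, its relative known from fat and liver, stood at -5.59, Dgat2, which completes triglycerides, at -3.45 and Pnpla3, a lipid droplet hydrolase, at -2.90. Of 9 oxysterol and LXR genes 2 fell, Mylip (-1.03) and Nr1h3, which encodes LXR alpha (-1.93). Of 11 fatty acid oxidation genes 1 rose, Ppargc1a (2.82), and 2 fell, Cpt2 (-1.15) and Acadl (-0.78).

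Cell type markers moved with the group at day 7. Of 8 tested sebaceous gland markers 7 rose: their sum was 84.7 to 88.9 CPM in control and 5051 to 5213 CPM in hydrogel wounds, with Scd3 at 7.15, Krt79 at 6.20, Elovl3 at 5.51 and Awat2 at 4.06 on the log2 scale and Mogat2 at 0 in the hydrogel libraries. Basal keratinocyte markers rose in 7 of 8 cases, with sums of 712.5 to 723.4 against 7584 to 7655 CPM (Krt14 at 4.71 and Krt5 at 3.83), and suprabasal markers in 5 of 8 (88.2 to 90.7 against 706.2 to 793.1 CPM). Adipocyte markers fell in 9 of 9 cases, from 36780 to 37300 CPM down to 1022 to 1109 CPM, with Lep at -6.01. Macrophage markers fell in 9 of 9 (2689 to 2709 against 354.4 to 407.4 CPM), fibroblast markers in 7 of 7 and endothelial markers in 4 of 5, while 2 of 8 skeletal muscle markers rose (Ckm at 3.42 and Pygm at 3.03) and hair follicle and Schwann cell markers passed in 0 cases. The part of these cell types in the change of the 32 genes was not tested.

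**Figure D3:**
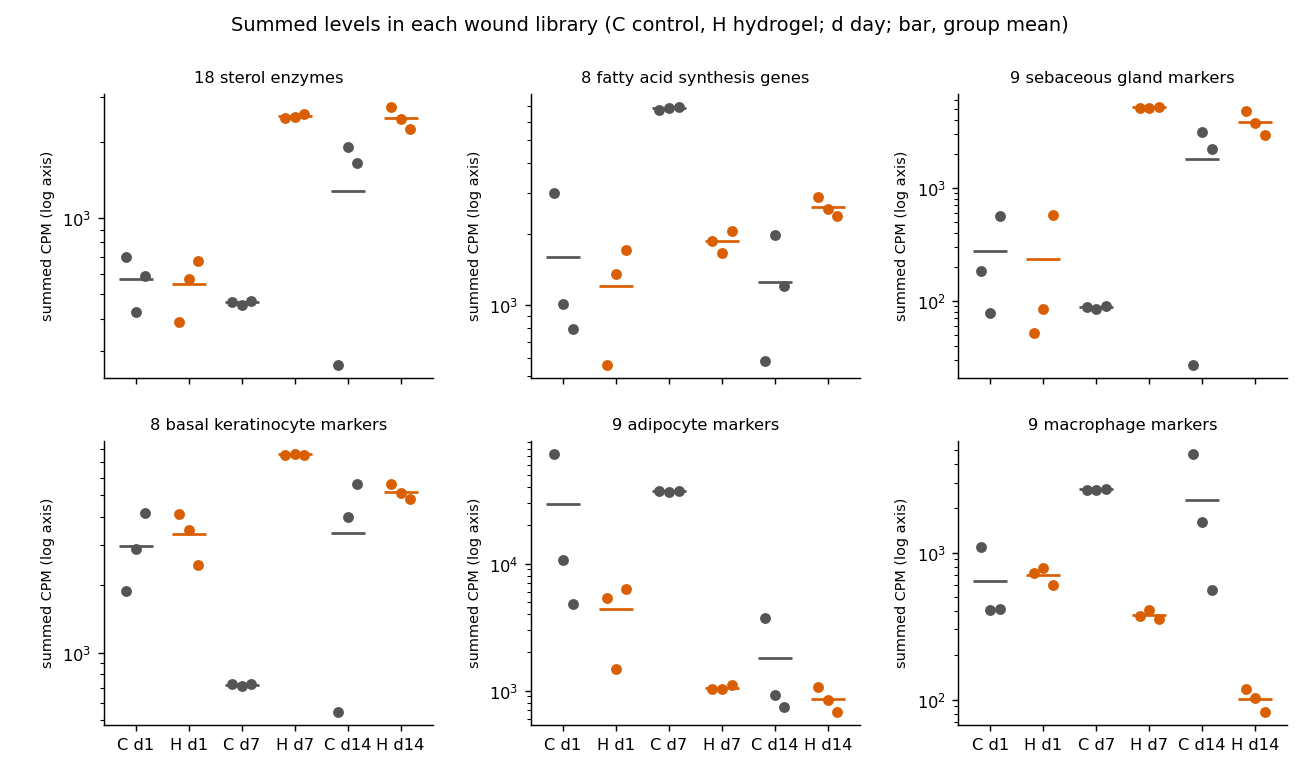
Summed CPM (log axis) in each wound library (points) with the group mean (bar) for the 18 sterol enzymes, the 8 fatty acid genes and 4 sets of cell type markers, controls in grey and hydrogel in orange at days 1, 7 and 14. At day 7 sterol enzymes, sebaceous and basal keratinocyte markers are high with hydrogel and fatty acid genes, adipocyte and macrophage markers low, and control day 14 replicate 1 sits far below its group in the sterol, sebaceous and keratinocyte panels.

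Day 7 controls and day 7 hydrogel libraries were each added up to 1 library, or the controls alone were. The 32 genes then lost their calls at day 7, as did nearly all genes of the whole table. The log2 fold changes of the 18 genes that had passed moved by at most 0.026 in the first case and 0.033 in the second. In these fits a summed library is assumed to vary like the other wound groups, whose median coefficients of variation reached 65.1% against 6.69% and 8.2% at day 7, so the loss of calls says nothing about the size of the estimates. DESeq2 was not run on summed libraries. With edgeR on the 6 day 7 libraries alone, 25 rose and 7 fell, where 35.2% of 15845 genes rose and 35% fell. With any single hydrogel library of day 7 left out, Fdps, Tm7sf2 and Fasn did not pass. With any single control library of day 7 left out, Idi1, Fdps, Fdft1 and Tm7sf2 did not, nor did Mvk without control replicate 1 or Nsdhl without control replicate 3.

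At day 14 all 32 estimates were above 0, and 6 genes rose and 0 fell, where 5.83% of all genes rose and 10.3% fell. The median was 1.07 over the 32 genes and 0.03 over all genes tested, and 24 genes had hydrogel libraries wholly above the controls, where 23.8% of all genes did. The genes that rose were not those that led at day 7: 3 had also risen then (Mvk, Fdps and Srebf2), and 3 had not (Sc5d, Dhcr7 and Stard4). Srebf2 stood at 32.5, 100.5 and 96.2 CPM in control and at 193.1, 199.7 and 218.7 CPM in hydrogel wounds (1.42 ± 0.30, edgeR adjusted p = 0.007366). Sc5d, low at day 7, stood at 10.9, 13.9 and 18.9 against 27.4, 30.5 and 34.6 CPM (1.08 ± 0.22, edgeR adjusted p = 0.006143). For both genes every hydrogel library was above every control, and control replicate 1 was the lowest.

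Dhcr7, which reduces 7-dehydrocholesterol to cholesterol, stood at 11.4, 28.0 and 43.3 CPM in control and at 62.9, 67.9 and 70.8 CPM in hydrogel wounds of day 14 (1.28 ± 0.34, edgeR adjusted p = 0.01899). Stard4 stood at 13.7, 20.04 and 29.5 against 46.4, 52.0 and 52.9 CPM (1.26 ± 0.31, edgeR adjusted p = 0.01546). Mvk stood at 19.6, 36.4 and 30.3 against 62.3, 58.1 and 56.2 CPM (1.03 ± 0.22, edgeR adjusted p = 0.007529). No hydrogel library fell inside the control range for these genes. Fdps stayed low, at 0.116, 1.97 and 1.88 against 6.0, 6.14 and 6.46 CPM (2.21 ± 0.69, edgeR adjusted p = 0.04026). Of the other regulators, Srebf1 stood at 48.2, 121.3 and 111.7 against 162.8, 148.1 and 135.1 CPM (0.67 ± 0.41), and Insig1 at 27.9, 49.3 and 46.5 against 91.5, 85.2 and 83.3 CPM (1.07 ± 0.48). Scap stood at 28.6, 72.7 and 47.6 against 78.9, 75.4 and 74.2 CPM (0.62 ± 0.28). Insig2, at 44.2, 86.2 and 68.2 against 94.6, 85.7 and 77.4 CPM, overlapped (0.38 ± 0.28). None of these 4 passed.

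The enzymes that led at day 7 did not pass at day 14, where 2 of 3 controls stood above the controls of day 7. In the main fit a smaller effect at day 14 was not shown for them: by the interaction it decreased for 0 of 18 sterol enzymes and increased for 1. Other fits did call decreases among the 32 genes, 9 of them without control day 14 replicate 1, and some with DESeq2 and with limma-voom. The share of all genes that decreased in those fits is not given. Hydrogel libraries of day 14 lay wholly above the controls for 14 of the 18, where 23.8% of all genes did. Msmo1 stood at 16.7, 415.5 and 333.8 CPM in control and at 505.3, 425.5 and 363.3 CPM with hydrogel (0.76 ± 0.72), and Sqle at 8.59, 104.2 and 132.9 against 193.3, 177.1 and 165.4 CPM (1.12 ± 0.59). Over the 18 sterol enzymes the control libraries summed to 262.5, 1901 and 1650 CPM and the hydrogel libraries to 2748, 2448 and 2240 CPM. The low library, control replicate 1, was also low in sebaceous markers (26.9 CPM against 3095 and 2197) and in basal keratinocyte markers (542.4 against 4014 and 5610), and high in macrophage markers (4715 CPM against 1616 and 552.9) and fibroblast markers (47270 against 18180 and 10570). No sebaceous or keratinocyte marker passed between the groups, while 9 of 9 macrophage and 7 of 7 fibroblast markers fell with hydrogel and 4 of 7 hair follicle markers rose, led by Krt31 at 6.87. Their part in the result was not tested. Fatty acid genes passed in 0 of 8 cases, and Fasn stood at 137.7, 487.4 and 372.9 against 801.7, 701.5 and 656.1 CPM (1.11 ± 0.76). Of the lists beside the 32, 2 of 16 lipogenic genes rose, the desaturase Fads2 (1.28) and Pnpla3 (1.80), and 2 of 9 oxysterol genes fell, the oxysterol hydroxylase Cyp7b1 (-2.66) and the sterol exporter Abcg1 (-2.25). Of 14 sterol and isoprenoid and 11 oxidation genes, 0 passed in edgeR.

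Without hydrogel day 14 replicate 2, the library that lay between the others, 3 of the 6 genes passed, where 1.68% of 18022 genes rose: Mvk, Sc5d and Srebf2. Dhcr7 (adjusted p = 0.0606), Stard4 (0.0551) and Fdps (0.0988) did not in that edgeR fit. With control replicate 1 left out as well, Srebf2 alone passed (1.07, edgeR adjusted p = 0.0257), where 0.641% of 17954 genes rose. With edgeR on the 6 libraries of day 14 alone 0 passed (10 at an unadjusted p below 0.05), where 0.403% of 16607 genes rose. The main fit had 5.83% of all genes higher, so these losses are not by themselves a trait of the genes described here. The share of all genes at that unadjusted p is not given. By DESeq2 on all wound libraries 6 passed. Leaving out hydrogel replicate 3 also left 3 (1.13% of all genes rose), and leaving out control replicate 2 gave 11 (4.31%). In the other lists without hydrogel replicate 2, Pnpla3 and Abcg1 lost their calls and Fads2 and Cyp7b1 passed. Of the markers, 9 of 9 macrophage and 6 of 7 fibroblast genes then fell, and of the hair follicle genes Krt31 alone rose.

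At day 1 none of the 32 genes passed in edgeR, where 4.53% of all genes rose and 3.02% fell. At an unadjusted p below 0.05, which 4563 of the 17592 tested genes reached, 0 were higher and 1 was lower, Acaca, and DESeq2 also called 0 in either direction. The median was -0.16, against 0.04 over all genes tested, and for 0 genes did the groups not overlap, where 9.57% of all genes stood wholly higher and 7.52% wholly lower. Acaca stood at 443.0, 63.5 and 40.4 CPM in control and at 41.8, 50.7 and 79.5 CPM in hydrogel wounds (-1.67 ± 0.61, edgeR adjusted p = 0.1006). Fasn stood at 1376, 203.6 and 126.0 against 95.2, 93.9 and 469.8 CPM, and Scd1 at 353.2, 35.2 and 38.3 against 12.7, 67.4 and 129.8 CPM. In each, control replicate 1 was far above its group, and its adipocyte markers summed to 73220 CPM against 10720 and 4775 CPM in the other controls. Other markers differed in that library too. Skeletal muscle markers summed to 6114 CPM against 208700 and 127600 CPM, and macrophage markers to 1100 CPM against 404.1 and 412.1 CPM. The part of these cell types in the values was not tested.

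The regulators overlapped between groups at day 1. Srebf1 was at 182.8, 65.7 and 63.9 CPM in control and 46.7, 58.0 and 107.0 CPM in hydrogel wounds (-0.56 ± 0.41), and Srebf2 at 55.6, 50.4 and 67.0 against 51.5, 68.4 and 68.3 CPM (0.12 ± 0.30). Scap stood at 47.8, 33.9 and 49.2 against 34.4, 61.9 and 60.0 CPM (0.26 ± 0.28). Insig1, at 100.4, 24.8 and 22.9 against 13.8, 21.99 and 44.3 CPM (-0.89 ± 0.48), was again highest in control replicate 1, and Insig2 stood at 50.4, 53.5 and 73.6 against 36.3, 59.1 and 83.7 CPM (0.01 ± 0.28). Of the lists beside the 32, 2 of 16 lipogenic genes rose, Mid1ip1 (2.57) and the glucose-sensing factor Mlxipl (0.94), and 1 fell, the acyltransferase Agpat2 (-2.79). Of 9 oxysterol genes Cyp7b1 rose (1.87), and 0 of 14 sterol and isoprenoid and 0 of 11 oxidation genes passed. Without control day 1 replicate 1 and control day 14 replicate 1 together, Mvk (0.60, edgeR adjusted p = 0.0117) and Acss2 (1.27, 0.029) were higher and Dhcr7 (-0.65, 0.0326) lower at day 1, and without control day 1 replicate 3 Acaca was lower (-2.14, 0.0241).

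In control wounds from day 1 to day 7, 4 fatty acid genes rose (Acly, Acaca, Fasn and Scd2) and Hsd17b7 fell, where 15% of all genes rose and 16.6% fell. The share of the 32 genes that rose, 12.5%, was not above that of all genes. Fasn went from 126.0 to 1376 CPM across the day 1 controls to 4948 to 5143 CPM (3.15 ± 0.82, edgeR adjusted p = 0.01034). From day 7 to day 14 in controls, 10 genes rose and 2 fell, where 6.33% and 5.87% of all genes did. The 10 were Hmgcs1, Mvd, Idi1, Sqle, Lss, Cyp51, Msmo1, Hsd17b7, Dhcr7 and Srebf2, though control day 14 replicate 1 lay within or below the day 7 range, so that the groups overlapped for each of them. Fasn (-3.92 ± 0.85, edgeR adjusted p = 0.009716) and Acaca (-3.57 ± 0.66, edgeR adjusted p = 0.004514) were the 2 that fell. The count of higher genes was 18 without control day 14 replicate 1, 2 without replicate 2, 5 without replicate 3 and 1 without any single control library of day 7. From day 1 to day 7 it was 10 without control day 1 replicate 1 (3 lower) and 2 without any other library (0 lower).

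In hydrogel wounds from day 1 to day 7, 17 genes rose and 0 fell, where 7.76% and 10.5% of all genes did. They included 12 of 18 sterol enzymes, led by Msmo1 (4.25 ± 0.82, edgeR adjusted p = 0.005018), together with Srebf1, Insig1, Insig2, Acly and Elovl6. Leaving out hydrogel day 1 replicate 2 left 6 of them, and leaving out hydrogel day 7 replicate 1, 2 or 3 left 10, 8 or 11. From day 7 to day 14, 4 genes rose and 0 fell, where 11.7% and 9.6% of all genes did. The share of the 32 genes that rose, 12.5%, was near that of all genes. Stard4 led at 1.95 ± 0.32 (edgeR adjusted p = 0.001758), from 12.1, 14.2 and 12.8 CPM to 46.4, 52.0 and 52.9 CPM, followed by Dhcr7, Sc5d and Srebf2. Without hydrogel day 14 replicate 2, Srebf2 did not pass in edgeR (adjusted p = 0.0822). These comparisons share the day 7 libraries with the comparison of hydrogel and control, so their values are not separate evidence.

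The change of the hydrogel effect between days was tested as an interaction. From day 1 to day 7 it was positive for 9 genes and negative for 0, where 5.85% and 7.08% of all genes passed: Hmgcs1, Mvd, Sqle, Lss, Cyp51, Msmo1, Hsd17b7, Srebf2 and Insig2. Of the 9, Msmo1 had the largest value, 5.21 ± 1.08 on the log2 scale (edgeR adjusted p = 0.007558). Without control day 7 replicate 1, 5 passed. From day 7 to day 14 the effect increased for Sc5d (1.501 ± 0.32, edgeR adjusted p = 0.02868) and Acaca (4.32 ± 0.88, edgeR adjusted p = 0.02374), where 0.693% of all genes did so and 1.02% went the other way. Neither passed in edgeR without hydrogel day 14 replicate 2 (adjusted p = 0.0846 and 0.0676), nor without any single library of day 7, and without control day 14 replicate 1 the effect decreased for 9 genes.

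In RAW264.7 cells the genes split in both directions. Of 31 tested, 10 rose and 11 fell, where 34.7% of 12972 tested genes rose and 37.8% fell, so that the share of these genes was near that of all genes. The median was -0.0042, against -0.04 over all genes. Libraries did not overlap for 10 genes higher and 12 lower, where 36% and 39.9% of all genes stood so. The sterol enzymes split into 6 higher and 4 lower, the regulators into 3 and 2, and the fatty acid genes into 1 higher and 5 lower of 7 tested. Summed over the 18 sterol enzymes the levels were 1560 to 1573 CPM without and 1295 to 1537 CPM with hydrogel, without overlap. The 7 mevalonate enzymes summed to 463.9 to 468.7 against 335.7 to 346.2 CPM. Sums of the 11 enzymes from squalene on overlapped, at 1092 to 1106 against 949.3 to 1201 CPM.

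**Figure D4:**
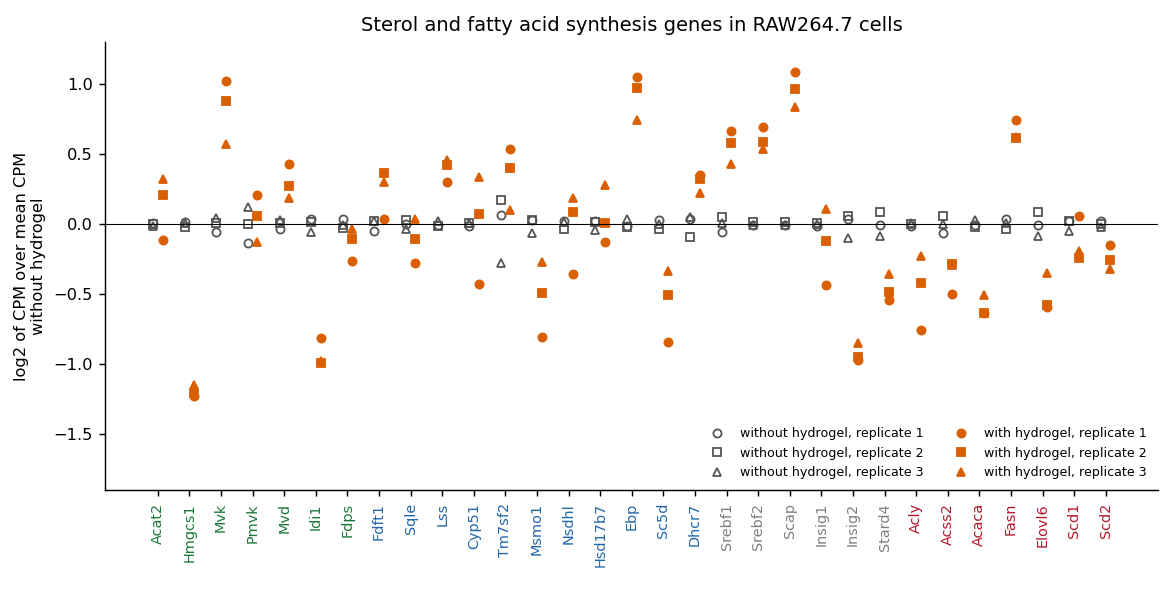
Level of 31 genes in the 6 RAW264.7 libraries, as log2 of CPM over the mean CPM without hydrogel (y axis), with untreated libraries as open grey and treated libraries as filled orange symbols and a symbol for each replicate. Untreated libraries lie close to 0, Mvk, Ebp and Scap lie near 1 with hydrogel, and Hmgcs1, Idi1 and Insig2 near -1. For most genes the treated replicate 2 lies between replicates 1 and 3.

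At the head of the pathway Hmgcs1 and Idi1 were lower with hydrogel. Hmgcs1 stood at 218.9, 213.0 and 217.9 CPM without and at 92.7, 93.8 and 97.9 CPM with hydrogel (-1.19 ± 0.06, edgeR adjusted p = 6.443e-08). Idi1 stood at 78.2, 77.1 and 73.3 against 43.3, 38.3 and 38.6 CPM (-0.93 ± 0.07, edgeR adjusted p = 9.263e-07). Mvk and Mvd, which act between them in the pathway, were higher: Mvk stood at 14.8, 15.4 and 15.8 against 31.1, 28.2 and 22.8 CPM (0.83 ± 0.11, edgeR adjusted p = 5.916e-05). Mvd stood at 60.1, 61.7 and 62.6 against 82.8, 74.4 and 70.0 CPM (0.30 ± 0.07, edgeR adjusted p = 0.003478). None of these 4 overlapped. Acat2, Pmvk and Fdps did not pass, at 0.15 ± 0.10, 0.05 ± 0.10 and -0.13 ± 0.09.

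From squalene on, Ebp moved most, at 22.01, 21.97 and 22.8 CPM without and 46.0, 43.7 and 37.2 CPM with hydrogel (0.92 ± 0.09, edgeR adjusted p = 4.547e-06). Lss stood at 175.8, 175.6 and 179.3 against 217.9, 237.4 and 242.8 CPM (0.40 ± 0.06, edgeR adjusted p = 0.0001614). Dhcr7 stood at 43.2, 39.5 and 43.6 against 53.6, 52.7 and 49.0 CPM (0.30 ± 0.07, edgeR adjusted p = 0.002645). Fdft1 had the smallest estimate of the higher genes. It stood at 75.6, 79.6 and 79.5 against 80.3, 100.7 and 96.5 CPM (0.24 ± 0.08, edgeR adjusted p = 0.02278), and did not pass when any untreated library was left out. Msmo1 stood at 223.5, 223.9 and 210.0 against 125.2, 156.0 and 181.7 CPM (-0.50 ± 0.11, edgeR adjusted p = 0.002056). Sc5d stood at 135.1, 129.4 and 132.6 against 73.8, 93.4 and 104.7 CPM (-0.54 ± 0.11, edgeR adjusted p = 0.0008993). In both lower genes treated replicate 1 was the lowest of all libraries. Sqle, Cyp51, Tm7sf2, Nsdhl and Hsd17b7 did not pass, with estimates from -0.11 for Sqle to 0.35 for Tm7sf2.

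The regulators Srebf1, Srebf2 and Scap were all higher in treated cells. Srebf2 stood at 289.3, 293.8 and 288.6 CPM without and 469.8, 435.0 and 420.7 CPM with hydrogel (0.60 ± 0.06, edgeR adjusted p = 7.305e-06). Srebf1 stood at 97.2, 104.3 and 101.2 against 160.0, 150.6 and 135.6 CPM (0.56 ± 0.07, edgeR adjusted p = 4.206e-05). Scap stood at 33.0, 33.6 and 33.0 against 70.3, 64.8 and 59.3 CPM (0.96 ± 0.07, edgeR adjusted p = 1.117e-06). Each treated library was above each untreated one. Insig2 was lower, at 22.3, 22.6 and 20.3 against 11.1, 11.3 and 12.1 CPM (-0.92 ± 0.08, edgeR adjusted p = 3.168e-06), and Stard4 too, at 62.4, 66.6 and 59.0 against 43.0, 44.7 and 49.0 CPM (-0.46 ± 0.07, edgeR adjusted p = 0.0002455). Insig1 overlapped, at 233.0, 236.1 and 235.2 against 173.3, 216.1 and 253.3 CPM (-0.13 ± 0.11).

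Fasn was the single fatty acid gene that was higher in treated cells, at 476.6, 453.5 and 467.2 CPM without and 778.2, 711.2 and 717.5 CPM with hydrogel (0.66 ± 0.06, edgeR adjusted p = 4.1e-06). Acaca, the step before it, was lower, at 95.5, 94.2 and 97.4 against 61.7, 61.5 and 67.5 CPM (-0.59 ± 0.06, edgeR adjusted p = 1.032e-05). Acly stood at 620.9, 627.1 and 629.2 against 369.8, 467.2 and 534.3 CPM (-0.45 ± 0.11, edgeR adjusted p = 0.003739). The 2 enzymes that supply acetyl-CoA for fat, Acly and Acss2, were both lower. Acss2 stood at 12.6, 13.8 and 13.2 against 9.36, 10.8 and 10.8 CPM (-0.35 ± 0.09, edgeR adjusted p = 0.005209). Elovl6 stood at 15.9, 16.9 and 15.1 against 10.6, 10.7 and 12.5 CPM (-0.50 ± 0.09, edgeR adjusted p = 0.0007214). Scd2 stood at 280.4, 276.6 and 272.7 against 248.9, 231.3 and 221.5 CPM (-0.24 ± 0.06, edgeR adjusted p = 0.004459). All 3 were without overlap, and Scd1 did not pass (-0.12 ± 0.10).

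Without the treated replicate 2, 10 genes rose and 10 fell in the cells, where 33% and 32.2% of all genes did, and Scd2 lost its call (adjusted p = 0.117). With that library left out and the 3 untreated libraries, which differed by little more than counting noise, summed into 1, 3 genes passed higher (Mvk, Ebp and Scap) and 3 lower (Hmgcs1, Idi1 and Insig2) in edgeR, where 15.1% of 13549 genes rose and 20.6% fell. That fit sets 1 summed library against 2 and has 1 residual degree of freedom, so genes that did not pass in it are not shown to be without a change. Of the lists beside the 32, 7 of 13 tested lipogenic genes rose and 2 fell, with Fads2 at 0.88, Elovl1 at 0.71, Lpin1, a phosphatidate phosphatase, at -1.03 and Acsl3 at -0.64. Of 13 tested sterol and isoprenoid genes 4 rose and 6 fell, led by Tmem97 at 1.496, Mbtps2, a protease that helps free SREBPs, at -0.78, Ggps1 at -0.78 and Npc2 at -0.39. Mbtps1, another such protease, was among the 4 that rose in the fit without the treated replicate 2. Of 7 tested oxysterol genes Nr1h3 rose (0.91) and Abca1, the sterol exporter (-2.19), and Mylip, a ubiquitin ligase induced by LXR (-0.92), fell. Of 9 tested oxidation genes 2 rose and 3 fell, among them Cpt1a (0.73), Acadvl (0.59), Acadm (-0.87) and Acadl (-0.40). Macrophage markers summed to 2456 to 2539 CPM without and 4520 to 4864 CPM with hydrogel, with 4 of 7 tested higher and 2 lower and C1qb at 0 in untreated cells, and keratins of basal keratinocytes (Krt5, Krt14 and Krt15) stood at 0. Without the treated replicate 2, 8 of 13 lipogenic genes rose in edgeR, and the other counts by list and of macrophage markers were as given.

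Side by side, 6 genes were higher both at day 7 and in the cells (Mvk, Mvd, Fdft1, Lss, Srebf2 and Scap), Acaca was lower in both, and 5 were called in opposite directions (Hmgcs1, Idi1, Msmo1, Insig2 and Fasn). In the cells 34.7% of 12972 tested genes rose and 37.8% fell, so calls in either direction are common among all genes. The share of all genes called in both experiments is not given here. Whether the effects in wounds and cells differ was not tested, since the experiments were fitted separately. In the wounds, 11 genes passed at no day: Acat2, Pmvk, Ebp, Srebf1, Insig1, Acly, Acss2, Acacb, Elovl6, Scd1 and Scd2.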

How the data were processed

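Deposited gene counts of 18 wound and 6 RAW264.7 libraries were used. Per the file headers, the authors counted read pairs over exons by gene name with featureCounts 2.0.6, unstranded, on the GENCODE vM25 annotation of GRCm38.p6. The submitters' processing notes also name Trim Galore 0.6.10, FastQC 0.11.9, HISAT2 2.2.1, SAMtools 1.9 and mm10. Counting by name without strand cannot separate overlapping genes or shared reads of close copies.

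Wounds (12 residual degrees of freedom) and cells (4) were fitted separately with edgeR 4.0.16 in R 4.3.3: filterByExpr with a minimum count of 10 and a minimum total of 15, TMM scaling, a mean per group, robust quasi-likelihood F tests, and Benjamini-Hochberg adjustment over all genes tested, called below 0.05. CPM uses TMM library sizes, except in the check of libraries that lie between the others, which uses total counts. DESeq2 1.42.0 and limma 3.58.1 were alternatives. The code was tested on simulated data. The members and lists were chosen with earlier results of these data known. Library values are given for members that passed and for Srebf1, Srebf2, Scap, Insig1 and Insig2, and up to 4 genes are named per other list by adjusted p. The alternatives that sum only the day 7 controls, that leave out 2 day 14 libraries, or that sum untreated cells and leave out treated replicate 2 were chosen after seeing the data. Replicate numbers were not used to pair samples in the main fits.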

Additional observations from a re-analysis of the deposited data

Results flagged for a closer look

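The hydrogel effect differed between days 1 and 7, by the interaction in edgeR over the wound libraries, for 9 genes. All 9 were higher, where 5.85% of all genes passed higher and 7.08% lower. On the log2 scale the difference was 3.51 for Hmgcs1, 2.34 for Mvd, 4.54 for Sqle, 3.71 for Lss, 4.13 for Cyp51, 5.21 for Msmo1, 4.47 for Hsd17b7, 1.42 for Srebf2 and 1.67 for Insig2. Between days 7 and 14 it differed by 1.501 for Sc5d and 4.32 for Acaca, where 0.693% of all genes passed higher and 1.02% lower. Each had an adjusted p below 0.05 in the main fit. Sc5d and Acaca did not pass without hydrogel day 14 replicate 2 (edgeR adjusted p = 0.0846 and 0.0676), nor without any single library of day 7. With the day 7 libraries summed, all of these calls were lost.

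In 5 genes every hydrogel library moved one way in the day 7 wounds and the other way in RAW264.7 cells, a difference that was not tested. In the cells 34.7% of all tested genes rose and 37.8% fell, and the gel cannot be told apart there from a possible difference in LPS. Hmgcs1 stood at 2.92 in the wounds and -1.19 in the cells, Idi1 at 3.49 and -0.93, Msmo1 at 4.95 and -0.50, Insig2 at 1.68 and -0.92, and Fasn at -2.96 and 0.66.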

How the results depend on the processing

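The share of all genes called also changed between fits, here and where single libraries were left out. A moved count is therefore not by itself a trait of the 32 genes. With the compared groups alone, 35.2% of all genes rose and 35% fell at day 7, where 9.86% and 11.7% did in the main fit. At day 14, 0.403% rose with those groups alone, where 5.83% did in the main fit. Shares are not given for every fit. Counts of the 32 genes that passed, higher and lower, moved as follows. With limma-voom and quality weights they were 1 higher at day 1, 7 lower at day 7, 14 higher at day 14, 14 and 9 for controls from day 1 to 7, 18 and 4 for controls from day 7 to 14, 2 lower for hydrogel from day 1 to 7, 13 and 5 for hydrogel from day 7 to 14, and 14 and 7, then 7 and 14, for the interactions. With DESeq2 they were 0 lower at day 7, 2 and 2, then 1 lower, for the control time steps, and 6 lower for the later interaction; DESeq2 gave no adjusted p for Acaca or Fasn in the wounds. With the compared groups alone they were 25 and 7 at day 7, 0 at day 14, 2 and 5, then 0 higher, for the control steps, 13 and 2 for hydrogel from day 7 to 14, and 7 and 4 for the later interaction. Without the filter they were 1 lower at day 7, 0 lower for controls from day 1 to 7 and 1 higher for the later interaction. Without control day 1 and day 14 replicates 1 they were 2 and 1 at day 1, 16 and 7, then 18 and 4, for the control steps, 1 lower, then 9 higher, for the hydrogel steps, and 15 and 4, then 6 and 12, for the interactions. With day 7 libraries summed every wound count that had been above 0 became 0, as did day 7 with its controls alone summed. Leaving out 2 day 14 libraries left 1, and summing untreated cells without treated replicate 2 left 3 and 3.

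Leaving out single libraries gave 0 to 0 higher and 0 to 1 lower at day 1, 11 to 14 and 1 to 2 at day 7, 3 to 11 and 0 to 0 at day 14, 2 to 10 and 0 to 3, then 1 to 18 and 2 to 2, for the control steps, 6 to 15 and 0 to 1, then 3 to 3 and 0 to 0, for the hydrogel steps, 5 to 10 and 0 to 2, then 0 to 3 and 0 to 9, for the interactions, and 9 to 14 and 10 to 13 in the cells. Nsdhl in the cells reversed without treated replicate 1, from -0.0042 to 0.16 (edgeR adjusted p = 0.00956; -0.0499 to 0.16 over the libraries left out). Estimates that passed in neither fit changed sign 67 times in 23 genes at day 1 and 11 times in 4 genes in the cells.

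Same-numbered wound libraries of different groups correlated at -0.1 to 0.37 (8 of 45 pairs over 0.1), and different-numbered ones at -0.36 to 0.29 (7 of 90). Same-numbered cell libraries correlated at -0.02 to 0.01 and different-numbered ones at -0.02 to 0.02. These values do not settle whether the numbers pair wound samples. With the replicate number as a block, 16 genes rose and 2 fell at day 7, 6 rose at day 14, 10 rose and 11 fell in the cells, and 2 fell in controls from day 1 to day 7.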
